A study of Gallus gallus with 6 samples.

Results

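The DNA repair genes described here are 56 of the 13009 genes that the array measured through a probe set with a single gene symbol. They were chosen by symbol: those of the FANC, BRCA, RAD5, XRCC, ERCC, MSH, MLH, PMS and PARP families, together with ATM, ATR, CHEK1, CHEK2, BLM, WRN, NBN, BARD1 and LIG4. Where several probe sets carried a symbol, the brightest on average across the 6 arrays stood for the gene, which made no use of the groups. The symbol rule also took in 8 PARP genes with roles mostly outside break repair and 3 genes (ERCC6L, ERCC6L2 and RAD54L2) that carry a repair symbol without belonging to the pathway of that name, and these 11 are described apart. XRCC1, ERCC1, ERCC2, FANCF, FANCM and PARP2 are among the genes of these families that were not analysed here.

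The study asked which genes depend on Tcf/Lef factors, the transcriptional partners of β-catenin, while spinal cord neurons differentiate. Wild-type White-Leghorn chick neural tubes received the plasmids by electroporation on day 3 of incubation, and tissue was taken on day 4, after 24 h of expression. Tubb3::CAG:TcfEnR cells, hereafter TcfEnR, carried a fusion of the Tcf3 HMG box with the engrailed repressor and membrane GFP, and Tubb3::CAG:control cells carried the same vector with GFP alone. In both groups a Cre recombinase driven by a TUBB3 enhancer switched the vector on, GFP+ cells were sorted, and each of the 3 arrays per group came from a pool of 20 to 25 neural tubes. The model is therefore limited to cells in which that enhancer had been active, to 24 h of expression and to the average over a pool. All values are log2 signals, so a difference of 1 is 2-fold, and they were taken as TcfEnR minus control.

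Cells repair different lesions by different routes. Double-strand breaks are repaired either by homologous recombination, which copies the sister chromatid and so belongs to cells that have replicated their DNA, or by end joining, which rejoins the ends in any phase of the cell cycle. The Fanconi anaemia pathway clears crosslinks between the strands, mismatch repair corrects errors of replication, nucleotide excision repair removes bulky lesions, and PARP1 senses nicks. The kinases ATM and ATR signal damage to the cell cycle through CHEK2 and CHEK1. Many of these genes are transcribed with the replication program, and in the embryonic neural tube it is the dividing progenitors that carry most of that program, while neurons leave the cycle as they are born.

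Most repair genes had a lower signal in TcfEnR. Of the 56 genes, 32 were lower at an adjusted p of 0.05 (57.1%), 5 were higher and 19 did not pass in either direction. Over all 13009 genes, 32.6% were lower and 25% were higher, so that the array as a whole had many calls in both directions. The median log2 fold change was −0.64 over the repair genes, with quartiles of −0.96 and −0.12, and −0.09 over all genes. When the quantile normalization was repeated the median of all genes moved to 0.03 and that of the repair genes to −0.46. The repair genes' median minus that of all genes was then −0.49, against −0.55 in the deposited values. In 37 of the 56 genes (66.1%) every TcfEnR array lay below every control array, against 37.3% of all genes. Past the 4-fold threshold were BRCA1, FANCC and RAD54B among the lower genes (5.36% of the repair genes, against 3.46% of all genes). PARP14 was the only one among the higher genes (1.79%, against 1.55% of all genes). A lower signal from sorted pools can come from fewer cells of a type or from less RNA per cell, and these arrays cannot tell these apart.

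**Figure D1:**
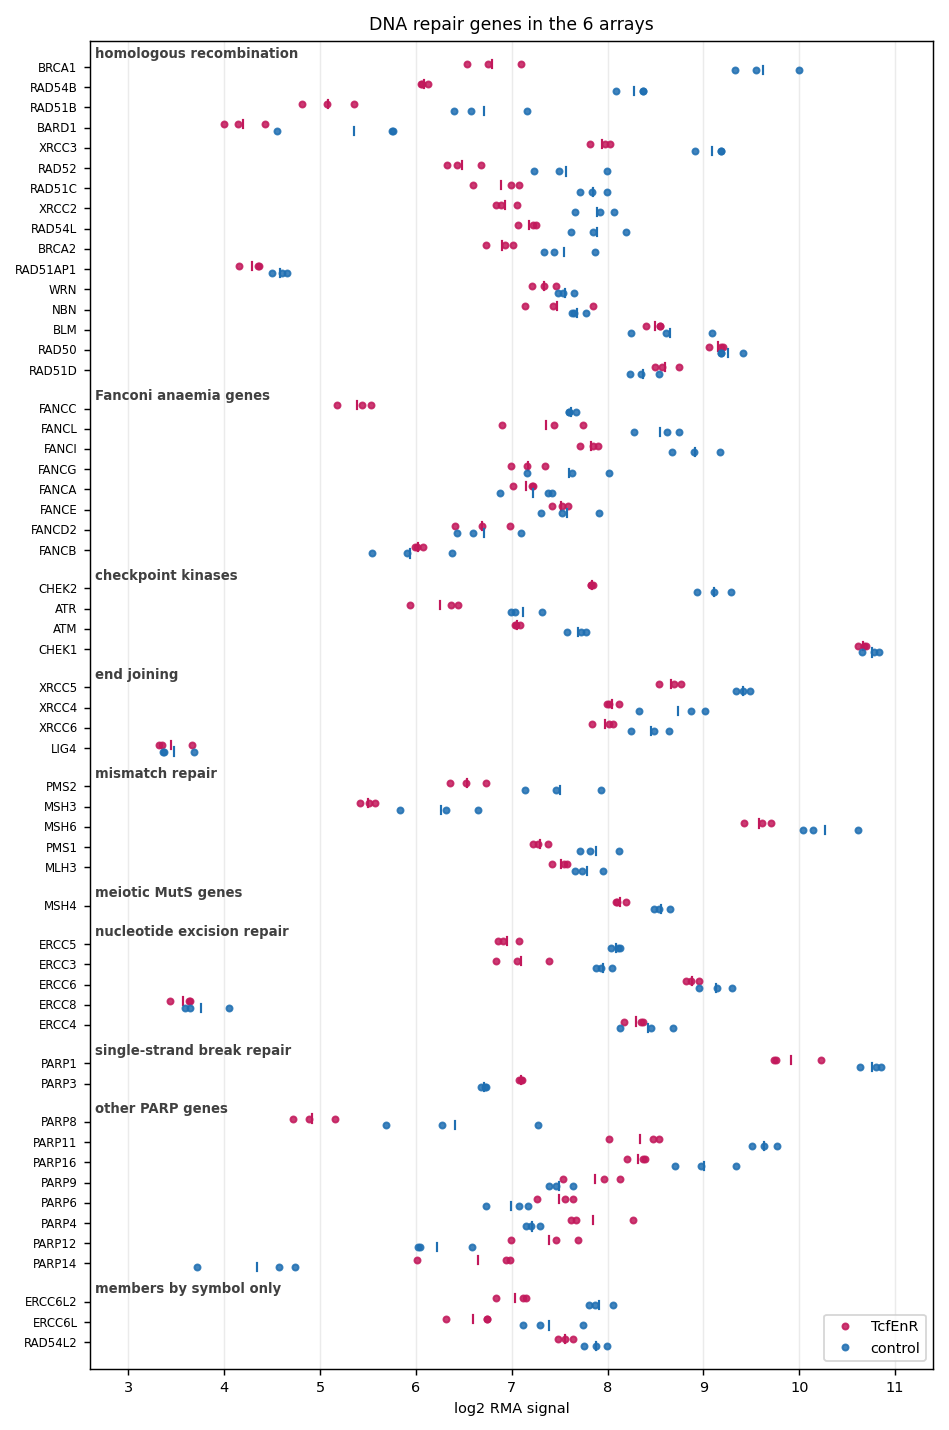
Log2 RMA signal (x axis) of each repair gene in each of the 6 arrays, grouped by role, with TcfEnR above control in each row and vertical ticks at the group means. BRCA1, RAD54B, RAD51B and FANCC show wide gaps between the groups with TcfEnR on the low side, and PARP14 and PARP12 show gaps with TcfEnR on the high side.

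Homologous recombination held the deepest fall of the repair genes, that of BRCA1. Of 16 measured, 10 were lower (62.5%, against 32.6% of all genes) and 0 higher, with a median log2 fold change of −0.83. BRCA1, a ubiquitin ligase subunit that promotes the resection of broken ends, had log2 signals of 7.09, 6.54 and 6.75 in TcfEnR arrays, against 9.33, 9.54 and 10.00 in control arrays. The groups were more than 2 log2 units apart at their nearest arrays, and the fall came to 7.10-fold (log2 fold change −2.83, SE 0.21, adjusted p = 1.49e-05). RAD54B, a DNA translocase of strand invasion, had 6.05, 6.13 and 6.07 in TcfEnR and 8.09, 8.37 and 8.37 in control. Its fall of 4.57-fold was accompanied by a spread of only 0.04 among the TcfEnR arrays (SD, n = 3; log2 fold change −2.19, SE 0.13, adjusted p = 6.43e-06).

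BRCA2, a mediator of recombination on single-stranded DNA, was lower as well. Its signals were 7.02, 6.74 and 6.93 in TcfEnR, against 7.34, 7.44 and 7.86 in control, which gave −0.65 (SE 0.17, adjusted p = 0.0107). BARD1, the partner without which BRCA1 is unstable, was lower by 1.16 on the log2 scale (log2 fold change −1.16, SE 0.30), with 4.15, 4.43 and 4.00 in TcfEnR and 4.55, 5.75 and 5.76 in control. The first control array of BARD1 stood near the TcfEnR arrays, and the groups did not overlap. Among the genes of the paralogue complexes that assist strand exchange, RAD51B (−1.64, SE 0.22), XRCC3 (−1.15, SE 0.14), RAD51C (−0.96, SE 0.16) and XRCC2 (−0.96, SE 0.15) were lower. RAD51D, of the same complexes, was not called and had a positive log2 fold change of 0.23 (95% interval −0.09 to 0.55). RAD52 (−1.09) and RAD54L (−0.71) completed the called genes of this route.

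The other 6 recombination genes of the set were not called, RAD51D among them. RAD50, which binds broken ends together with NBN, had a log2 fold change of −0.11 with a 95% interval of −0.41 to 0.19. NBN gave −0.21 (95% interval −0.63 to 0.20). The RecQ helicases BLM and WRN, which unwind recombination intermediates, gave −0.15 and −0.22. RAD51AP1, a cofactor of strand exchange, gave −0.30 at an adjusted p of 0.0822 although its TcfEnR arrays all lay below its control arrays.

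In the Fanconi anaemia pathway, some genes fell and others were not called. Of 8 measured, 3 were lower (37.5%), close to the 32.6% of all genes, 0 were higher and 5 were not called, with a median of −0.25. FANCC, a core complex subunit, had 5.17, 5.44 and 5.54 in TcfEnR, against 7.59, 7.67 and 7.60 in control. This was a 4.72-fold fall (log2 fold change −2.24, SE 0.14, adjusted p = 7.03e-06), and the control arrays had an SD of 0.04 (n = 3). FANCL, the ubiquitin ligase of the core complex, fell by 1.18 and FANCI, one of the proteins it modifies, by 1.09 on the log2 scale. FANCD2, the partner of FANCI in the clamp that marks a crosslink, had 6.98, 6.69 and 6.41 in TcfEnR and 6.43, 6.60 and 7.10 in control. The groups overlapped in FANCD2, and its log2 fold change of −0.02 had a 95% interval of −0.49 to 0.45. FANCA (−0.08), FANCE (−0.07) and FANCB (0.08) lay as close to 0, while FANCG gave −0.43 with an adjusted p of 0.117, or −0.65 with an adjusted p of 0.0157 without control replicate 1 (0.0157 to 0.332 over all alternatives).

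Checkpoint kinases were lower in 3 of 4 cases (75%, against 32.6% of all genes). CHEK2, the effector kinase of ATM, had 7.83, 7.85 and 7.83 in TcfEnR and 8.94, 9.11 and 9.29 in control, which gave −1.28 (SE 0.14, adjusted p = 9.93e-05). ATR, which responds to stalled forks and exposed single strands, had 6.37, 5.94 and 6.44 in TcfEnR and 7.04, 7.00 and 7.32 in control (−0.87, SE 0.17). ATM, which responds to double-strand breaks, had 7.04, 7.03 and 7.09 in TcfEnR, against 7.72, 7.57 and 7.77 in control (−0.63, SE 0.12). None of these 3 called genes had overlapping groups, and 37.3% of all genes had every TcfEnR array below every control array. CHEK1, the effector kinase of ATR, had 10.68, 10.70 and 10.62 in TcfEnR and 10.78, 10.83 and 10.66 in control, and its log2 fold change of −0.09 had a 95% interval of −0.37 to 0.19. Another of its 3 probe sets was lower (−0.71, SE 0.24, adjusted p = 0.0323), so that the probe sets of CHEK1 differed in their calls.

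**Figure D2:**
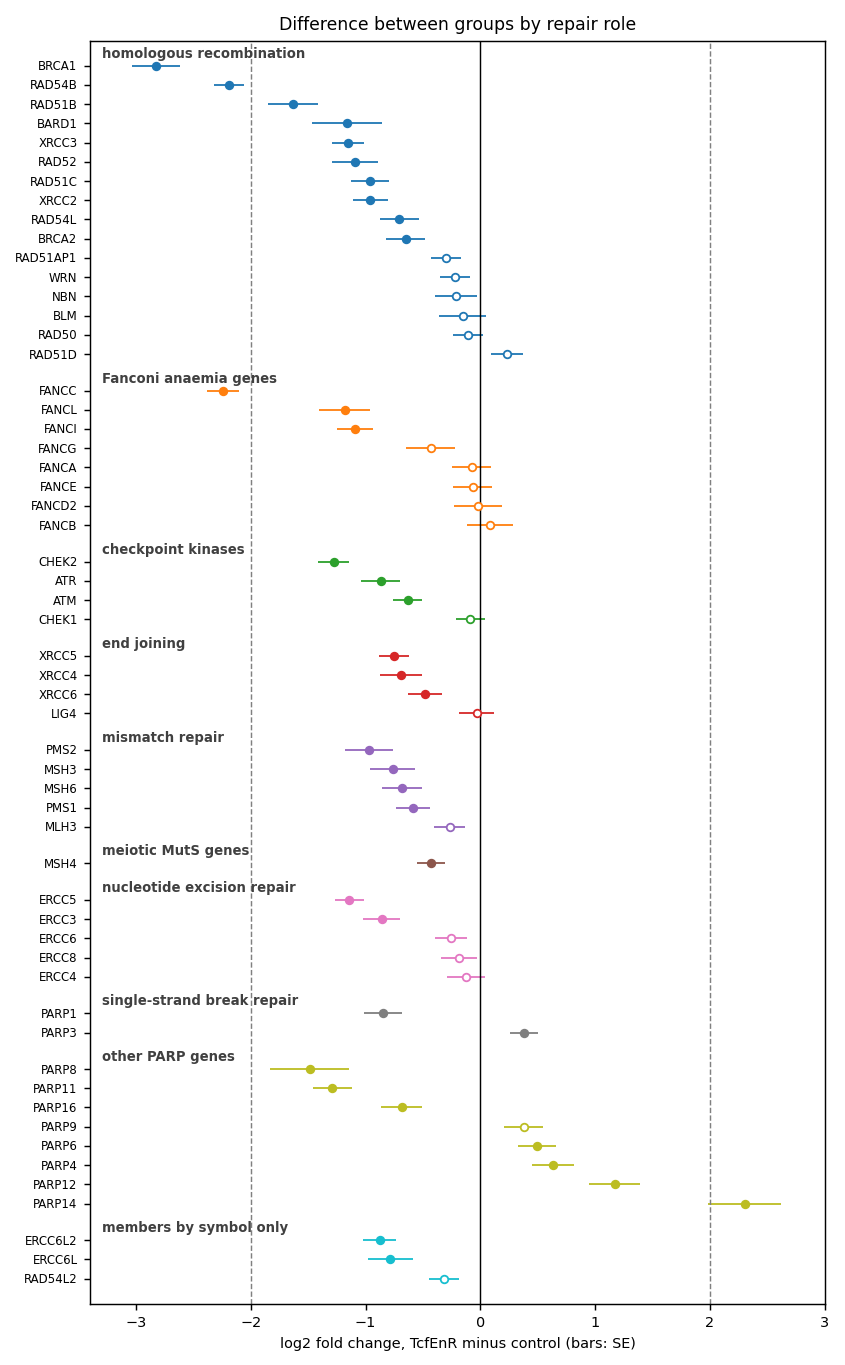
Log2 fold change (x axis, TcfEnR minus control) of each repair gene with its moderated SE, grouped by role; filled points passed an adjusted p of 0.05, and dashed lines mark 4-fold. The filled points lie left of 0 in every role except the single-strand break and other PARP groups, and FANCC, BRCA1, RAD54B and PARP14 pass the dashed lines.

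End joining showed moderate falls. The Ku subunit XRCC5, which caps broken ends, had 8.69, 8.53 and 8.76 in TcfEnR and 9.35, 9.41 and 9.49 in control (−0.75, SE 0.13, adjusted p = 0.0013). XRCC4, the scaffold of the ligase, was lower by 0.69 (log2 fold change −0.69) and XRCC6, the other Ku subunit, by 0.49 (−0.49). The call of XRCC6 was lost without TcfEnR replicate 2 (adjusted p = 0.0507), TcfEnR replicate 3 (0.0767), control replicate 2 (0.059) or control replicate 3 (0.0582), in a range of 0.0111 to 0.129 over all alternatives. LIG4, the ligase itself, stood near the floor of the array in both groups, at means of 3.44 in TcfEnR and 3.47 in control, where the 5th percentile of all values was 3.32, which left little room for a fall.

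All 5 measured mismatch repair genes had every TcfEnR array below every control array, against 37.3% of all genes. The test was passed by 4 of them (80%), against 32.6% of all genes called lower. PMS2, an endonuclease that nicks the strand to be corrected, had 6.36, 6.73 and 6.52 in TcfEnR, against 7.13, 7.46 and 7.93 in control (−0.97, SE 0.21, adjusted p = 0.00399). MSH3 (−0.77), MSH6 (−0.68) and PMS1 (−0.59) were lower, and MLH3 gave −0.27 at an adjusted p of 0.128. MSH4, a relative of these genes that acts in meiotic crossing over, had 8.19, 8.10 and 8.09 in TcfEnR and 8.65, 8.48 and 8.54 in control (−0.43, SE 0.12, adjusted p = 0.017). Without TcfEnR replicate 2 or 3 the adjusted p of MSH4 was 0.0553 or 0.0509 (0.0169 to 0.163 over all alternatives).

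In nucleotide excision repair 2 of 5 genes were lower (40%), near the 32.6% of all genes. ERCC5, the endonuclease that cuts on the 3′ side of a lesion, had 6.91, 6.85 and 7.07 in TcfEnR and 8.04, 8.13 and 8.10 in control (−1.14, SE 0.13, adjusted p = 0.000124). ERCC3, a helicase of the transcription factor TFIIH, was lower by 0.86 (log2 fold change −0.86). ERCC4, the endonuclease on the other side of the lesion, gave −0.12, and ERCC6 and ERCC8, which recruit repair to stalled RNA polymerase, gave −0.25 and −0.19. ERCC8 lay near the floor of the array, as LIG4 did.

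By the brightest probe sets and the deposited values, the 5 genes called higher were all PARP genes. PARP1, the main nick sensor, was bright and lower, with 9.76, 10.23 and 9.74 in TcfEnR and 10.63, 10.80 and 10.85 in control (−0.85, SE 0.17, adjusted p = 0.00249). PARP3, a smaller relative that acts at double-strand breaks, was grouped with PARP1 under single-strand break repair in the figures. PARP3 was higher by a narrow margin, with 7.08, 7.10 and 7.10 in TcfEnR, against 6.68, 6.72 and 6.73 in control (0.38, SE 0.12, adjusted p = 0.024). Its call did not survive the loss of any TcfEnR array or of control replicate 1 or 2, at adjusted p-values of 0.0625, 0.0652 and 0.06 without TcfEnR replicates 1, 2 and 3 and of 0.0556 and 0.0526 without control replicates 1 and 2 (0.011 to 0.0652 over all alternatives).

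The other PARP genes went both ways, as did all genes. Of 8 measured, 3 were lower (37.5%, against 32.6% of all genes) and 4 higher (50%, against 25%). PARP14, a large macrodomain enzyme, had 6.94, 6.01 and 6.98 in TcfEnR, against 3.72, 4.74 and 4.57 in control. Its rise of 4.93-fold was the one change past 4-fold in that direction (log2 fold change 2.30, SE 0.32, adjusted p = 0.000424), and it came to 1.99 on the log2 scale without control replicate 1. PARP12, a zinc finger member, had 7.46, 7.00 and 7.69 in TcfEnR and 6.04, 6.02 and 6.59 in control (1.17, SE 0.22, adjusted p = 0.00208). In mammals PARP9, PARP12 and PARP14 are induced by interferon, and PARP9 here gave 0.38 at an adjusted p of 0.0966, or 0.55 at 0.027 without TcfEnR replicate 2 (0.027 to 0.291 over all alternatives).

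PARP4, the vault particle member, had 7.67, 7.62 and 8.26 in TcfEnR and 7.15, 7.20 and 7.29 in control (0.64, SE 0.18, adjusted p = 0.017). PARP6 had 7.64, 7.56 and 7.27 in TcfEnR, against 6.74, 7.07 and 7.17 in control (0.50, SE 0.17, adjusted p = 0.0314). Its further probe sets gave −0.16 and −0.04 and were not called. The nearest arrays of the groups were close in PARP6, and its call was lost without TcfEnR replicate 1 (adjusted p = 0.111) or 2 (0.0955) and without control replicate 1 (0.0928) or 2 (0.0539), in a range of 0.0195 to 0.518. PARP8 was the deepest fall of the family, with 4.72, 5.15 and 4.88 in TcfEnR and a wide scatter of 7.27, 6.27 and 5.69 in control (−1.49, SE 0.34, adjusted p = 0.00586). PARP11 (−1.29) and PARP16 (−0.69), an enzyme of the endoplasmic reticulum, were also lower.

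Of the 3 genes taken in by symbol only, ERCC6L, a helicase of mitotic centromeres, was lower (−0.78) and so was ERCC6L2 (−0.88). ERCC6L2 had 7.12, 6.84 and 7.14 in TcfEnR, against 7.80, 7.87 and 8.06 in control. RAD54L2 gave −0.32 at an adjusted p of 0.0657. Without these 3 and the 8 other PARP genes, 27 of 45 repair genes were lower (60%, against 32.6% of all genes). Among these 45, 1 was higher (2.22%, against 25% of all genes), and the median was −0.65.

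For the brightest probe sets of the 19 genes that were not called, the 95% interval of the difference lay within 2-fold in both directions, and in 13 of them it lay within 1.5-fold. These bounds do not extend to further probe sets of the same genes, such as that of CHEK1 given above. Of the 32 lower genes, 13 fell by 2-fold or more and 19 by less. The share of all genes lower by 2-fold or more was not worked out. The lower quartile of the log2 fold change was −0.96 over the repair genes and −0.61 over all genes. The spread among arrays was small, with a median SD over the repair genes of 0.12 in TcfEnR and 0.20 in control (n = 3 each).

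The repair genes were of middling brightness. Dividing all genes into 5 equal groups by mean signal, from dimmest to brightest, the repair genes had 9, 12, 19, 13 and 3 in these groups. The share of lower genes among them was 44.4%, 58.3%, 57.9%, 61.5% and 66.7%, and in all genes of the same groups it was 13%, 26.6%, 36.7%, 43.7% and 42.8%. The count of lower repair genes exceeded the share of all genes at every level of brightness, though the brightest group held only 3 repair genes.

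A total of 114 probe sets named these 56 genes, of which 29 genes had 1 probe set and 27 had several. Over the 114, 49 were lower, 14 were higher and 51 were not called. The share of all probe sets called was not worked out, so the probe set counts here are descriptions only. With the mean of all probe sets of a gene, 53.6% of the repair genes were lower, against 31.6% of all genes. All 4 probe sets of BRCA1 were lower, at −2.83, −2.54, −2.09 and −1.41, and all probe sets of MSH3, PARP1, PARP11, XRCC3 and XRCC5 were lower too. Of the 26 further probe sets of lower genes, 14 were lower. ERCC6L2 was the one gene with calls in opposite directions, since a dim probe set was higher, at means of 4.54 in TcfEnR and 3.67 in control (0.87, SE 0.18, adjusted p = 0.00362). FANCA had 2 further probe sets higher (0.42 and 0.64), ERCC4 had 2 lower (−0.44 and −0.37) and RAD54L2 had 1 higher (0.44), although their brightest probe sets were not called.

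**Figure D3:**
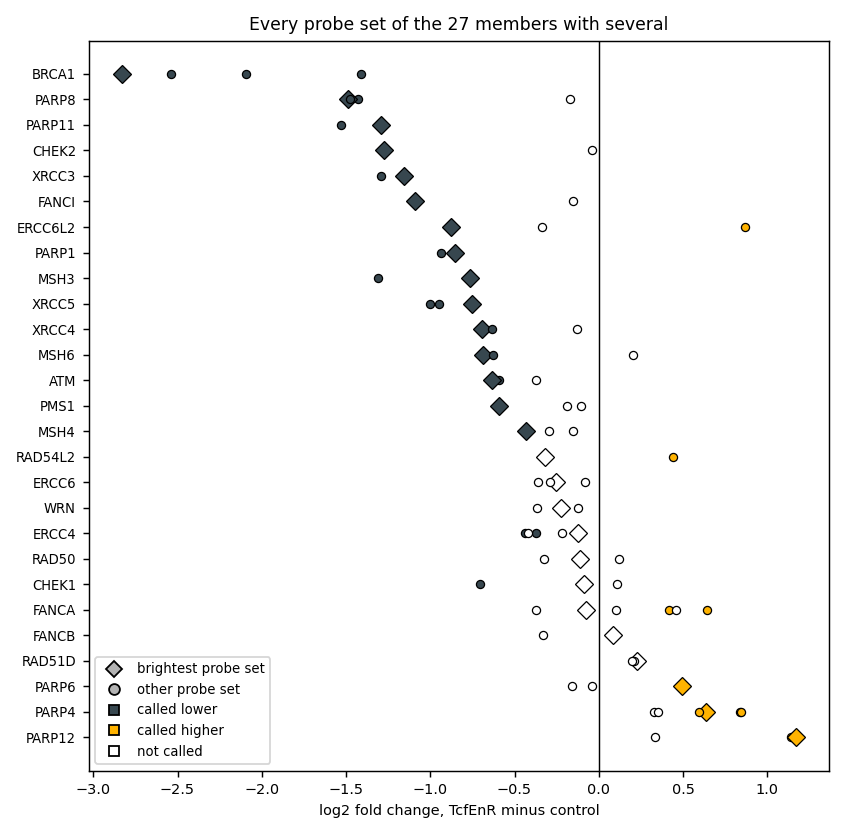
Log2 fold change (x axis, TcfEnR minus control) of every probe set of the 27 repair genes with more than 1, with the brightest probe set as a diamond and the others as circles, dark where called lower, yellow where called higher and open where not called. The 4 points of BRCA1 all lie on the left, and ERCC6L2 has a dark diamond and a yellow circle.

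Other genes of the same routes, taken by name and outside the symbol rule, were read next. Of 26 further genes of homologous recombination and crosslink repair, 19 were lower and 0 higher (73.1% lower, against 32.6% of all genes, median −0.75). EXO1, the exonuclease that resects breaks and serves mismatch repair, fell the most, with 6.22, 5.61 and 5.86 in TcfEnR and 8.27, 8.37 and 9.01 in control (−2.65, SE 0.23, adjusted p = 3.1e-05). NSMCE1, a subunit of the SMC5/6 complex, had 7.03, 6.78 and 6.97 in TcfEnR and 8.74, 8.71 and 8.51 in control (−1.73, SE 0.14). MRE11, SMC5, SMC6, POLQ and GEN1 were among the lower genes, and PALB2, the bridge between BRCA1 and BRCA2, was not called.

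In damage signalling 10 of 17 further genes were lower (58.8%, against 32.6% of all genes) and 1 was higher (5.88%, against 25%). CLSPN, the adaptor between ATR and CHEK1, was lower by 1.23 (log2 fold change −1.23, SE 0.18), and BRE, a subunit of the BRCA1-A complex, by 1.01 (−1.01, SE 0.12). UIMC1, which brings that complex to ubiquitin at breaks, was higher, with 7.93, 7.82 and 7.88 in TcfEnR and 7.20, 7.17 and 7.57 in control (0.57, SE 0.15). Nucleotide excision repair had 7 of 13 further genes lower (53.8%) and 0 higher, led by the damage-binding protein XPA (−1.27) and the TFIIH-associated cyclin CCNH (−1.17).

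The remaining lists held calls in both directions. In base excision repair 6 of 18 genes were lower (33.3%), about the share of all genes (32.6%), and these were led by the flap endonuclease FEN1 (−1.36), which also processes Okazaki fragments, and by TDP1 (−1.13), which frees topoisomerase from DNA. The glycosylases NEIL1 (0.48) and NEIL2 (0.47) were higher. In end joining 3 of 7 further genes were lower (42.9%), with PRKDC (−0.60), the DNA-dependent protein kinase, and APTX (−0.48) in front. Another 3 were higher (42.9%, against 25% of all genes), among them POLL (0.53) and NHEJ1 (0.52). The remaining higher gene, DNTT (0.51), lay near the floor of the array, at means of 3.50 in TcfEnR and 2.99 in control. In translesion synthesis and direct reversal the shares were also near those of all genes, with 3 of 10 lower, led by MAD2L2 (−0.86) and REV1 (−0.71), components of lesion bypass, and 2 were higher, the alkylation reversal enzymes ALKBH3 (0.52) and MGMT (0.50). Whether the lists differ from each other was not tested. Over all 6 lists, 48 of 91 genes were lower (52.7%, against 32.6% of all genes) and 8 were higher (8.79%, against 25%), with a median of −0.43.

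**Figure D4:**
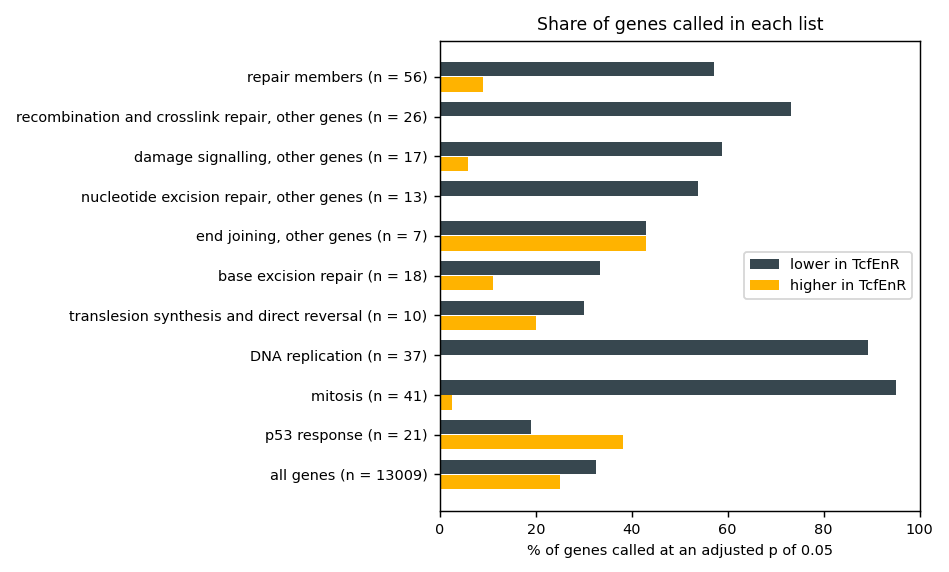
Percentage of genes called lower (dark) and higher (yellow) in TcfEnR (x axis, % of the genes measured) in the repair genes, in 6 lists of other repair genes, in 3 lists of related programs and in all genes. The dark bar reaches 57.1% for the repair genes, 95.1% for mitosis and 32.6% for all genes.

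Replication and mitosis genes were lower in nearly every case. Of 37 replication genes, 33 were lower (89.2%, against 32.6% of all genes) and 0 higher (median −1.03). The deepest falls were those of the replicative helicase component CDC45 (−3.02, SE 0.35) and the ribonucleotide reductase subunit RRM2 (−2.13, SE 0.25). Of 41 mitosis genes, 39 were lower (95.1%) and 1 higher (median −1.81). CENPF, a kinetochore protein of dividing cells, had 7.58, 7.35 and 7.54 in TcfEnR and 10.51, 10.39 and 10.90 in control (−3.11, SE 0.16), NDC80 gave −3.05, and CENPO was higher (0.61). The median signal of the mitosis genes was 7.58, 7.35 and 7.32 in TcfEnR arrays and 8.93, 9.30 and 9.65 in control arrays, while that of the repair genes was 7.38, 7.12 and 7.23 in TcfEnR and 7.71, 7.67 and 7.91 in control. How far the fall of the repair genes follows the share of dividing cells in the pools was not tested.

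Among the control arrays, most repair genes and most replication and mitosis genes were highest in replicate 3. In 34 of the 56 repair genes (60.7%) control replicate 3 was the highest of the 3 control arrays, against 40.5% of all genes. It was the highest in 78.4% of replication genes, 75.6% of mitosis genes and 76.2% of neural progenitor markers. In the lists of other repair genes the share ran from 14.3% in end joining and 23.1% in nucleotide excision repair to 66.7% in base excision repair. Neuron markers were highest in control replicate 1 in 87.5% of cases, against 28.5% of all genes. The 3 control pools therefore differed from each other in replication, mitosis and neuron signal. Without control replicate 3, 31 repair genes were lower (55.4%, against 32.1% of all genes) and the median was −0.53.

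**Figure D5:**
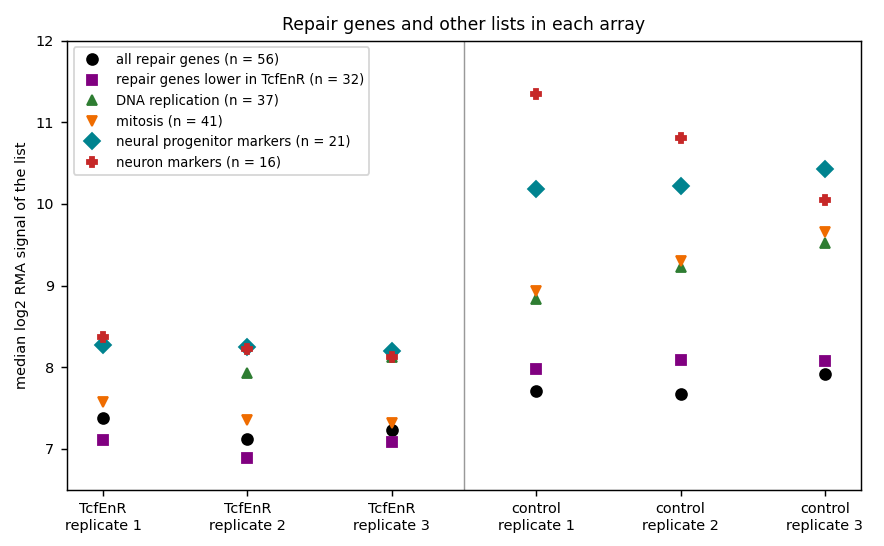
Median log2 RMA signal (y axis) of the repair genes, of the 32 lower ones, and of 4 other lists in each array, TcfEnR on the left and control on the right of the line. The 32 lower genes were chosen for a lower signal in these same arrays, so their position was set by that choice. Each of the other lists is lower in each TcfEnR array than in each control array. Among controls the mitosis and replication medians are highest in replicate 3 and the neuron median in replicate 1.

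The sorted cells were checked against their markers. TUBB3 had 9.76, 9.80 and 9.48 in TcfEnR and 11.69, 11.51 and 10.76 in control. Of 16 measured neuron markers 13 were lower (81.2%, against 32.6% of all genes) and 0 higher. The median signal of the neuron markers was 8.38, 8.22 and 8.12 in TcfEnR and 11.35, 10.81 and 10.05 in control. Of 21 neural progenitor markers 18 were lower (85.7%) and 0 higher, at medians of 8.27, 8.25 and 8.20 in TcfEnR and 10.18, 10.22 and 10.43 in control. The labels call the cells postmitotic, yet SOX2, a progenitor factor, had 10.18, 10.26 and 11.22 in control arrays and the mitosis genes were bright there. Lower neuron and progenitor signal accompanied the falls of the repair genes, and its part in them was not tested.

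Blood markers moved the other way in part, with 6 of 14 higher (42.9%, against 25% of all genes) and 0 lower. The median signal of the 14 was 7.40, 7.46 and 6.92 in TcfEnR and 7.80, 7.45 and 6.95 in control, so that the list as a whole overlapped between the groups. The largest called rise was that of the embryonic globin gene HBE (1.77, SE 0.44), and the erythroid and endothelial factor TAL1 was higher as well (1.04, SE 0.27). The α-type globin HBA1 had 10.60, 12.03 and 6.76 in TcfEnR and 9.21, 8.70 and 8.53 in control, and HBZ had 11.54, 12.55 and 8.04 in TcfEnR and 10.21, 9.37 and 9.66 in control. TcfEnR replicate 3 thus stood below both other TcfEnR arrays and all control arrays in these globins, and neither gene was called. The leukocyte genes were mixed. LCP1 (−0.74), CD44 (−0.37) and CYBB (−0.10) had negative log2 fold changes and were not called. CD74 (1.49, SE 0.13), the macrophage receptor gene CSF1R (1.21, SE 0.17) and SPI1 (0.46) were higher. The phosphatase gene PTPRC was higher too, with 5.63, 5.73 and 5.90 in TcfEnR and 5.15, 4.77 and 4.84 in control. PARP14 and PARP12 were higher in each TcfEnR array than in each control array, and the part of blood cells in those rises was not tested.

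Markers of other tissues also differed between the groups. Of 16 endothelial markers 6 were higher (37.5%, against 25% of all genes) and 1 was lower, CLDN5 (−0.62). EGFL7 (1.89) and SOX18 (1.36) had the largest rises, and 9 markers were not called, KDR, CDH5 and PECAM1 among them. Of 9 neural crest markers 6 were lower (66.7%, against 32.6% of all genes) and 2 higher (22.2%, against 25%), and TFAP2B fell by 4.21 on the log2 scale. Of 20 mesenchyme and somite markers 3 were lower (15%, against 32.6% of all genes) and 1 was higher, PDGFRB (2.38). Among the controls, 95% of these markers were highest in control replicate 2, against 31.1% of all genes. Their part in the changes of the repair and PARP genes was not tested.

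Genes of a list named for the p53 response were more often higher than lower. Of 21 measured, 8 were higher (38.1%, against 25% of all genes) and 4 lower (19%, against 32.6%), with a median of 0.31. The cell cycle inhibitor CDKN1A had 11.46, 11.52 and 11.14 in TcfEnR, against 9.42, 9.62 and 9.94 in control (1.71, SE 0.17, adjusted p = 7.72e-05), and the death receptor TNFRSF10B gave 1.29. GADD45G (−2.21) and BTG1 (−1.40) were the deepest falls of that list.

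Arrays of 1 group correlated at 0.978 to 0.991 across probe sets and arrays of different groups at 0.890 to 0.917, with array medians of 6.929 to 6.933. The mean 3′ minus 5′ difference of 3 control transcripts, a measure of RNA integrity, was 0.318, 0.307 and 0.348 in TcfEnR and 0.276, 0.360 and 0.230 in control (exact permutation test, two-sided, p = 0.5, where 3 against 3 arrays cannot go below 0.1). Precision rested on 3 arrays per group.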

How the data were processed

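RNA of sorted GFP+ cells, from 3 TcfEnR and 3 control pools, was amplified for the Affymetrix chicken array. The authors deposited log2 values made by RMA (background correction, quantile normalization and probe summary; version not given in the sources used here), so differences are relative to all probe sets. Of 38535 probe sets, 96 controls were left out, and of 38439 tested 27168 had a single symbol in the platform annotation, 177 several and 11094 none. The gene IDs of 54 of the 56 repair genes were found under the same symbol in a RefSeq table, and PARP14 and PMS2 keep the array's name. No genome build is named, so no coordinates are given, and the planned search of promoter motifs was not run.

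Groups were compared with limma 3.58.1 in R 4.3.3 (lmFit and eBayes, unpaired), with Benjamini-Hochberg adjustment over the 38439 probe sets. Genes were called at an adjusted p of 0.05, and past 4-fold at a log2 fold change of at least 2 in size as well. Errors are moderated standard errors and intervals are 95%. The fit was tried on simulated arrays in which few probe sets were changed, unlike these data. That trial therefore does not bear on the number of calls here. Replicates are biological per the labels.

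Per-array values are given for genes past 4-fold, the deepest called fall and largest called rise in each role, each gene called higher, and BRCA1, BRCA2, ATM, ATR, CHEK1, CHEK2, FANCD2 and PARP1. Of each list of other repair genes and of replication, mitosis and p53 genes, up to 2 called genes with the largest falls and 2 with the largest rises are named, with CDKN1A. Further examples, and the marker genes named, were chosen after their values were seen. The repair genes and all lists were chosen with earlier results of these data known, so their counts are descriptions. Alternatives were a replicate block, a mean-variance trend, repeated quantile normalization, median centring, a filter on dim probe sets, the mean of all probe sets of a gene, and leaving out each array.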

Additional observations from a re-analysis of the deposited data

How the results depend on the processing

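Across 12 alternatives, 25 of the 32 lower and 3 of the 5 higher genes were called in each one that gave a value, 14 of the 19 uncalled genes were never called, and 0 called genes changed direction. With the replicate number as a block, which the design does not support as a pairing, 32 genes were lower and 3 higher, since PARP3 and PARP6 lost their calls. Of all genes, 30.8% were lower and 23.2% higher with that block. Same-numbered arrays had correlations of deviations of −0.04, 0.02 and −0.06, and no TcfEnR array correlated best with the control array of its own number. The median log2 fold change was −0.46 both with quantile normalization repeated and with the mean of all probe sets of a gene. Leaving out 1 array at a time gave 30 to 33 lower genes (53.6% to 58.9%) and 3 to 5 higher. Of all genes, 27.1% to 32.1% were lower and 19.7% to 25.1% higher in those fits. Leaving out 1 array also gave 3 lower past 4-fold, 0 to 1 higher past 4-fold and a median of −0.67 to −0.53. The count of higher genes was 3 without TcfEnR replicate 1 or without control replicate 1 or 2. PARP14 fell just under 4-fold without control replicate 1. Quantile normalization repeated gave 28 lower genes (50%, against 25.1% of all genes) and 7 higher, where 27.5% of all genes were higher. In that setting MSH4, MSH6, PARP16, XRCC4 and XRCC6 lost their calls and PARP9, RAD51AP1 and RAD51D gained them. With the mean of all probe sets ERCC6L2, MSH6, PARP6 and PMS1 lost their calls and ERCC4 gained one. The causes were not tested. Signals near the array's floor limited LIG4 and ERCC8.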
